A study of Mus musculus with 42 samples.

Results

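The genes described here are 6 genes of Nodal signalling: the ligand Nodal, its co-receptor Tdgf1, the nuclear partner Foxh1, the feedback inhibitors Lefty1 and Lefty2, and the antagonist Cer1. They were taken by symbol from a table of 24225 genes, and all 6 had 1 row each and passed the filter on low values. The study cultured mouse embryonic stem cells (ESC) of 2 wild-type lines (WT, lines W1 and W2) and 2 AMPK double-knockout lines (DKO, lines K1 and K3), all C57Bl/6-derived. AMPK is a kinase that senses low cellular energy, and the knockout concerns its catalytic subunits, encoded by Prkaa1 and Prkaa2. ESC, labelled as day 0 and grown with leukaemia inhibitory factor (LIF), and embryoid bodies of days 2, 4, 8 and 12 were collected from cultures whose glucose was set to 25 mM (high glucose, HG) or to 2.5 mM (low glucose, LG). Embryoid bodies are floating aggregates that differentiate once LIF is withdrawn, and the cells had been grown on irradiated DR4 feeders and then passaged without them. Messenger RNA was sequenced in 42 libraries, 22 headed WT and 20 headed DKO. The question posed was how loss of AMPK alters gene expression during differentiation.

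Nodal is a secreted ligand of the TGF-beta family that acts through activin receptors and Smad2 and Smad3. It needs a co-receptor of the Cripto family, such as Tdgf1 or Cfc1, and in the nucleus Foxh1 brings the Smad proteins to many target genes, among them Nodal, Lefty1 and Lefty2. In the mouse embryo the pathway maintains the epiblast and then patterns the primitive streak, mesoderm and endoderm. Lefty1, Lefty2 and Cer1 are secreted inhibitors, and Cer1 is made by the anterior visceral endoderm and the forming definitive endoderm.

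The headings of 18 libraries went against markers in the data, so the genotype results below rest on the other 24. Line markers (Ddx3y and the imprinted RNA Meg3) contradicted 15 headings, Prkaa2 contradicted 9 at a threshold of 1 RPKM, and Txnip, a transcript induced by glucose, contradicted 8 at 5 RPKM. RPKM is a read count scaled to transcript length and library size. No library was moved to another group. In the 24 that matched, Prkaa2 was at 1.32 to 22.3 RPKM in 13 WT libraries and at 0.019 to 0.959 in 11 DKO libraries, and Prkaa1 was at 6.53 to 11.2 and 4.01 to 6.63, which overlap. After this step WT LG days 8 and 12 were represented by W1 alone and DKO HG days 8 and 12 by K3 alone. DKO at HG days 2 and 4, WT ESC and WT at HG day 2 had no matched library. Depth was 10500000 to 25500000 reads per library, so that 3 reads stood for at most 0.21 RPKM of any of the 6 genes.

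On day 2 in LG, embryoid bodies of both genotypes carried abundant Tdgf1, Lefty1, Nodal, Foxh1 and Lefty2 and almost no Cer1. By day 12 the first 5 were near the lower end of their range in WT and several times higher in DKO, in both glucose media. At LG day 12 limma (a linear model over 14670 genes with Benjamini-Hochberg adjustment) called 4 of the 6 genes higher in DKO, where 35.3% of all genes were called in either direction. At HG day 12 all 6 were called higher, against 32.2% of all genes. The median log2 difference of the 6 genes, DKO minus WT, was 2.05 at LG day 12 and 2.2 at HG day 12, and that of all tested genes was 0.16 and 0.1. Those high shares of called genes mean that the count of members is read against a broad change.

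**Figure D1:**
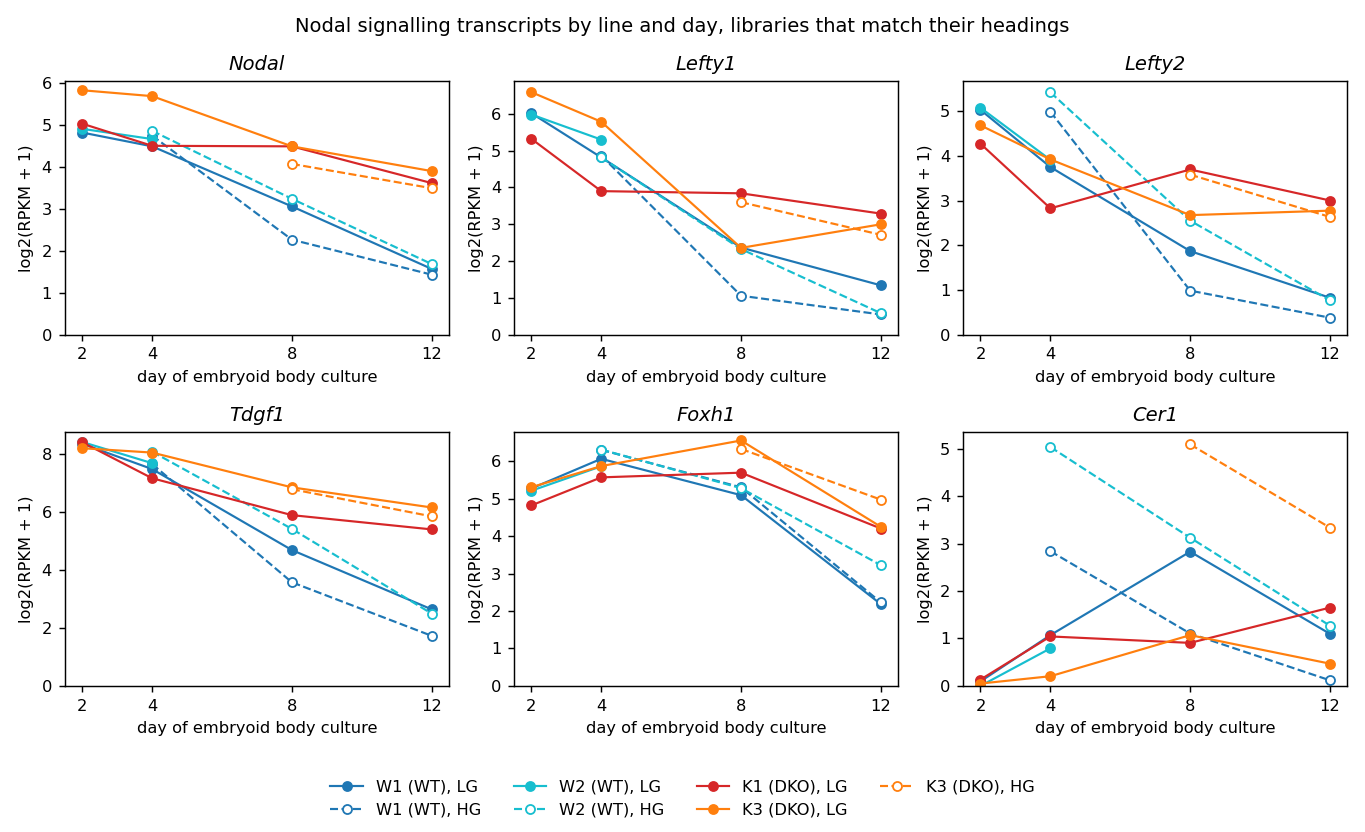
RPKM of the 6 genes on a log2(RPKM + 1) scale by day of embryoid body culture, with 1 point per line and condition, in the libraries that matched their headings. Filled points and solid lines are LG, open points and dashed lines HG. WT lines (blue and cyan) end day 12 below DKO lines (red and orange) for 5 genes. Cer1 is higher in HG than in LG in K3 and, on day 4, in both WT lines.

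Nodal, the ligand (transcript NM_013611, mm10 chr10:61417972-61425337, plus strand), was detected above 1 RPKM in 42 of 42 libraries. At LG day 2 it was at 27.4 RPKM in W1, 29.2 in W2, 31.9 in K1 and 56.2 in K3. At LG day 4 it was at 26.2 and 17.8 in the 2 columns headed W1, 24.5 in W2, 21.8 in K1 and 50.9 in K3. K3 stood above the other lines on both days, while K1 lay close to WT on day 2 and within the WT range on day 4. The difference between genotypes was 0.57 ± 0.37 (log2, SE, n = 2 lines against 2) on day 2 and 0.52 ± 0.37 on day 4 (limma adjusted p = 0.923 and 0.572). At LG day 8 Nodal was at 7.36 RPKM in W1 and 21.6 in both K1 and K3. At LG day 12 it was at 1.97 in W1, 11.3 in K1 and 14.0 in K3. Both DKO lines were above the WT line on each of these days. The differences were 1.43 ± 0.46 on day 8 (limma adjusted p = 0.0468) and 2.2 ± 0.46 on day 12 (0.00359). In HG K3 was again above W1, and also above W2. Nodal was there at 3.82 in W1, 8.48 in W2 and 15.9 in K3 on day 8, and 1.70, 2.22 and 10.3 on day 12. K3 did not overlap WT, and the difference passed the test on day 12 (1.94 ± 0.46, limma adjusted p = 0.00835) and not on day 8 (1.33 ± 0.46, 0.0676).

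The day 8 call of Nodal in LG was near the threshold and was lost under 6 of 10 alternative settings with heading-checked libraries, with adjusted p from 0.0251 to 0.164. On day 12 the same settings left it between 2.05 and 2.62 on the log2 scale, and it was called in 10 of 10. The difference shrank to 0.58 with every library under its heading.

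Tdgf1, the co-receptor also known as Cripto (NM_011562, chr9:110939608-110946158, minus strand), was the most abundant of the 6 transcripts per unit length on days 2 and 4. At LG day 2 it stood at 325 RPKM in W1, 339 in W2, 337 in K1 and 292 in K3. The DKO lines lay on either side of W1, with a difference of -0.08 ± 0.52 between genotypes (limma adjusted p = 1). It was then at 189 and 165 (W1), 204 (W2), 142 (K1) and 263 (K3) RPKM on LG day 4. By LG day 8 it was at 24.7 in W1, 58.2 in K1 and 114 in K3, and by LG day 12 at 5.23, 41.1 and 70.1. In HG the values were 10.9 (W1), 41.6 (W2) and 109 (K3) on day 8 and 2.31, 4.63 and 56.5 on day 12. DKO libraries were above WT libraries in all 4 of these conditions. The largest differences of the 6 genes on day 12 were those of Tdgf1, 3.13 ± 0.64 in LG and 3.74 ± 0.64 in HG (limma adjusted p = 0.00331 and 0.00179). On HG day 8 the difference was 2.3 ± 0.64 (0.0338), and on LG day 8 it was 1.68 ± 0.64 (0.0838). Without W1 the HG day 8 difference was 1.38 and was no longer called.

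The start regions of Tdgf1 and Nodal are shown because their transcripts had similar profiles. The RefSeq sequences (GRCm38.p6) cover 300 bases around the start, for Nodal chr10:61417722-61418021 (plus strand) and for Tdgf1 chr9:110946109-110946408 (minus strand). Capitals mark matches to the motifs searched on both strands: TGTNNATT, a short form of the Foxh1 motif, ATGCAAAT, the octamer, GTCTAGAC, a Smad palindrome, TATAAA, the TATA box, and CTTTGT, a core shared by SOX and TCF factors.
Tdgf1: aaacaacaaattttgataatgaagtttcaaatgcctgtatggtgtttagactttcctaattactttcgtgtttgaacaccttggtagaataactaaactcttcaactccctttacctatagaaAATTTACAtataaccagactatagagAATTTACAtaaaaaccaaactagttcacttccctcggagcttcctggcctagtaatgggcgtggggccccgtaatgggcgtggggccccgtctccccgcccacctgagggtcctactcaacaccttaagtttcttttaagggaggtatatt
Nodal: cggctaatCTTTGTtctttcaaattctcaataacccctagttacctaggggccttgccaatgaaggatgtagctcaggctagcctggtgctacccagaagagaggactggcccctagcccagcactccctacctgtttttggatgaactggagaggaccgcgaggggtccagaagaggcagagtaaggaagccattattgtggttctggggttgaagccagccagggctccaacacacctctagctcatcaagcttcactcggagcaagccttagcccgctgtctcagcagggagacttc
Tdgf1 held 2 matches to the Foxh1 motif, at -127 and -101 from the start, both as its reverse complement. Nodal held 1 match to CTTTGT, at -242. Of 32851 promoters of the same length, 12.2% held TGTNNATT, 18.7% CTTTGT, 13.6% TATAAA, 1.74% ATGCAAAT and 0.213% GTCTAGAC. The corresponding region of Cer1 held none of these letters, and those of Lefty1, Lefty2 and Foxh1 were not used here. A match to letters is a description and shows no binding.

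Foxh1, the forkhead factor that carries Smad complexes to DNA (NM_007989, chr15:76668224-76669948, minus strand), followed another course. At LG day 2 it was at 37.6 RPKM in W1, 36 in W2, 27.2 in K1 and 38.5 in K3. At LG day 4 it was at 84.1 and 51.4 (W1), 57.2 (W2), 46.4 (K1) and 57.4 (K3). All lines were higher than on day 2, but the step did not pass the test (0.72 ± 0.3 in WT and 0.66 ± 0.3 in DKO, limma adjusted p = 0.168 and 0.282). On LG day 8 it was at 33.1 in W1, 50.7 in K1 and 92.8 in K3, the last being the highest Foxh1 value of all 42 libraries. On LG day 12 it was at 3.54, 17.4 and 18.0. Foxh1 fell from day 8 to day 12 in both genotypes, with log2 differences of -2.91 ± 0.43 in WT and -1.9 ± 0.3 in DKO (limma adjusted p = 0.00625 and 0.00317), and was the only one of the 6 called in either step. Without W2 the adjusted p was 0.106 in WT and 0.0533 in DKO, and the DKO call was also lost without W1 (0.0508) and without K3 (-1.49, 0.0957). At LG day 12 it was 2.04 ± 0.37 higher in DKO (0.00179), and at HG day 12 it was 2.25 ± 0.37 higher (0.00144), with 3.69 RPKM in W1, 8.33 in W2 and 30.4 in K3. On HG day 8 it was at 38.4, 37.8 and 79.2 RPKM, a difference of 1.04 ± 0.37 that did not pass the test (0.0758).

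Foxh1 was also the only one of the 6 whose course over LG days differed between genotypes in a test of the interaction itself (moderated F test over days 4, 8 and 12 against day 2, limma adjusted p = 0.0228). That test called 10.6% of all genes. Relative to day 2, the difference between DKO and WT in Foxh1 changed by -0.07 by day 4, by 1.21 by day 8 and by 2.22 by day 12. Without W2, which is present in LG on days 2 and 4 only, the adjusted p was 0.241. Tdgf1 and Lefty2 had larger changes by day 12, 3.22 and 2.64, with adjusted p = 0.0564 and 0.0694. With line as a replicate block, Tdgf1 was also called (adjusted p = 0.0285, against 0.0431 with quantile scaling and 0.284 without W2), and 2457 genes were called in place of 1548.

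**Figure D2:**
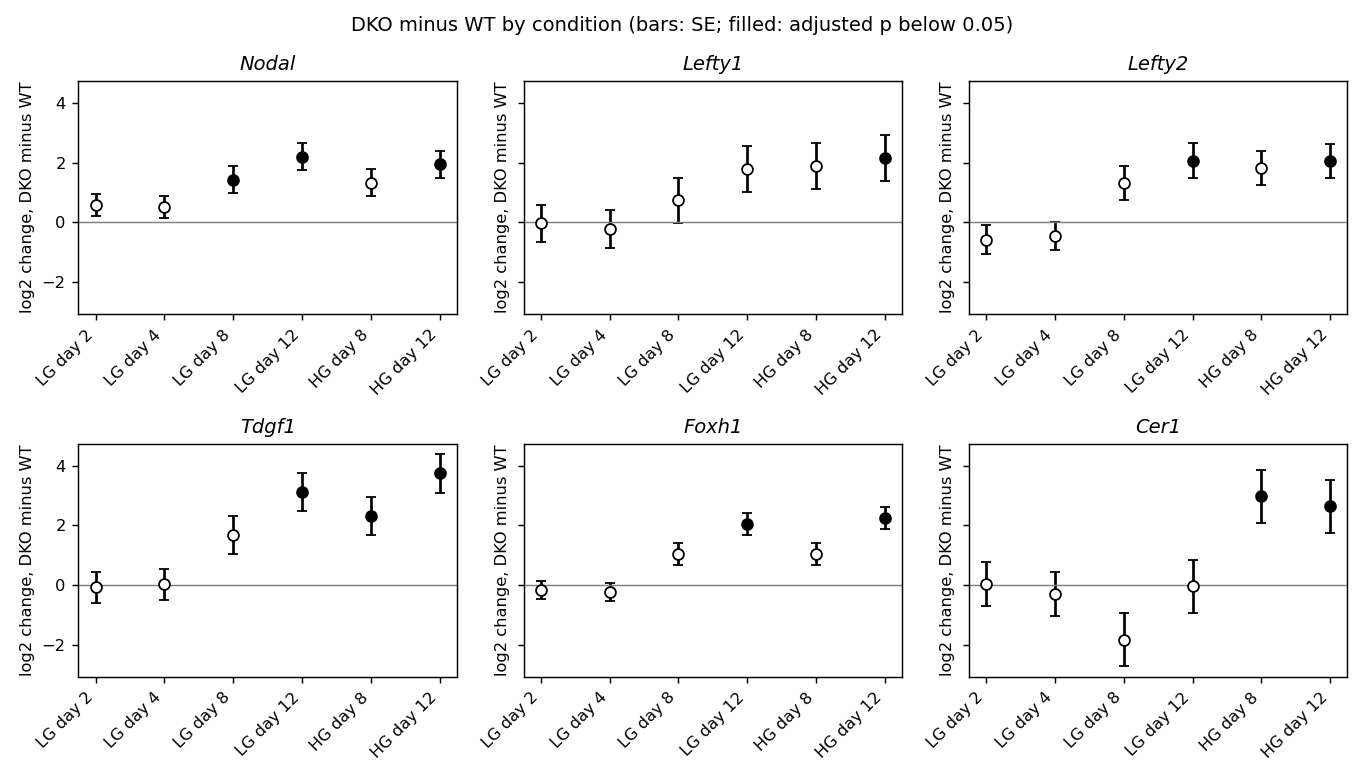
Differences between genotypes (DKO minus WT, log2(RPKM + 1) scale) for each gene in the 6 conditions with matched libraries of both genotypes. Points are limma estimates, bars are SE, and filled points have an adjusted p below 0.05. Estimates lie between -0.58 and 0.57 on LG days 2 and 4 and between 1.8 and 3.74 on day 12, except for Cer1 in LG.

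Lefty1 (NM_010094, chr1:180935039-180938401, plus strand) and Lefty2 (NM_177099, chr1:180893119-180899102, plus strand) encode secreted inhibitors that are direct targets of Nodal signalling. Their coding sequences are 1104 bases each and identical at 1014 of them (91.8%), with identical runs of up to 140 bases. Of the stretches of 50 bases in each transcript, 17.9% in Lefty1 and 11.6% in Lefty2 also occur in the other gene or elsewhere, almost all in the other gene. For Tdgf1, 236 of 1883 occur in the pseudogene Tdgf1-ps1. How reads with several positions were counted was not given in the sources used here, so the values of these 3 genes are uncertain to that extent. For Nodal and Foxh1 the share was 0, and for Cer1 it was 1.78%.

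At LG day 2 Lefty1 was at 63.6 RPKM in W1, 62.0 in W2, 38.9 in K1 and 95.0 in K3, and Lefty2 was at 31.8, 32.9, 18.4 and 24.8. The DKO lines lay on either side of WT for Lefty1, and both lay below WT for Lefty2 (-0.58 ± 0.48, limma adjusted p = 0.978). At LG day 4 Lefty1 was at 34.3 and 21.4 (W1), 38.3 (W2), 13.9 (K1) and 54.0 (K3), and Lefty2 at 13.5 and 11.5, 14.1, 6.11 and 14.2. K1 was the lowest line for both genes and K3 the highest, so the DKO lines enclosed the WT lines. On LG day 8 Lefty1 was at 4.15 in W1, 13.3 in K1 and 4.12 in K3, and Lefty2 at 2.67, 12.0 and 5.40. K1 had here become the higher DKO line, and for Lefty1 K3 lay at the WT value. On LG day 12 Lefty1 was at 1.53, 8.76 and 6.97 and Lefty2 at 0.773, 7.03 and 5.86. Both DKO lines were then above W1. Lefty2 was called higher in DKO (2.07 ± 0.58, limma adjusted p = 0.0168), and Lefty1 missed the threshold (1.8 ± 0.77, 0.0864). The Lefty2 call was lost without W2 (adjusted p = 0.0503) and with headings checked by Prkaa2 and Txnip alone (0.0598; 0.0129 to 0.0598 over settings with checked headings).

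In HG, Lefty1 was at 1.08 (W1), 4.01 (W2) and 11.1 (K3) RPKM on day 8 and at 0.462, 0.498 and 5.55 on day 12. Lefty2 was at 0.981, 4.87 and 11 and at 0.301, 0.702 and 5.22. K3 was above both WT lines on both days for both genes. Neither difference passed the test on day 8 (1.9 ± 0.77 and 1.82 ± 0.58, limma adjusted p = 0.107 and 0.0548), and both did on day 12 (2.15 ± 0.77 and 2.06 ± 0.58, 0.0495 and 0.0197). The Lefty1 call was lost with line as a replicate block (2.06, adjusted p = 0.0696, with 0.00571 to 0.25 over all settings). On HG day 12 only 1 of the 6 genes, Tdgf1, was called without W1, and 3, Tdgf1, Foxh1 and Cer1, without W2.

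Cer1, an antagonist of Nodal, BMP and Wnt ligands (NM_009887, chr4:82881751-82885151, minus strand), differed from the other 5. It reached 1 RPKM in 19 of 42 libraries and was listed at 0 in 6. At LG day 2 it was at 0.068 RPKM in W1, 0 in W2, 0.097 in K1 and 0.035 in K3, each within the value that 3 reads give. On LG day 4 it was at 0.902 and 1.31 (W1), 0.731 (W2), 1.06 (K1) and 0.152 (K3). On LG day 8 it was at 6.11 in W1, 0.875 in K1 and 1.10 in K3, and on LG day 12 at 1.14, 2.15 and 0.384. W1 alone passed 3 RPKM in LG, and no LG difference between genotypes passed the test, with -1.84 ± 0.89 on day 8 and -0.04 ± 0.89 on day 12 (limma adjusted p = 0.164 and 0.984). In HG day 4 WT libraries Cer1 was at 6.16 (W1) and 31.8 (W2) RPKM, with no matched DKO library to set beside them. On HG day 8 it was at 1.15 (W1), 7.72 (W2) and 33.1 (K3), and on HG day 12 at 0.085, 1.41 and 9.09. K3 was above both WT lines on each day, by 2.98 ± 0.89 and 2.64 ± 0.89 (limma adjusted p = 0.0428 and 0.0397). HG day 8 called 2 of the 6 genes higher, Cer1 and Tdgf1, against 15.3% of all genes. Without W1 or without W2 neither was called on that day, with Cer1 at 1.97 and 3.99. The day 12 call of Cer1 held in 6 of 10 settings with checked headings: it was 1.0 (adjusted p = 0.499) with headings checked by Prkaa2 and Txnip alone, and was lost without the filter (0.0643), without W1 (0.0971) and without K1 (0.0624).

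The glucose comparison on days 8 and 12 singled out Cer1 within DKO. In K3, the DKO line with both media, it was at 33.1 RPKM in HG and 1.10 in LG on day 8, and at 9.09 and 0.384 on day 12. K1, measured in LG alone, was at 0.875 and 2.15, so all 4 LG values lay below both HG values. The mean difference LG minus HG over both days was -3.19 ± 0.63 (limma adjusted p = 0.0105), and Cer1 was the 1 gene called among the 6 where 6.71% of all genes were called. The call was lost when headings were checked by Prkaa2 and Txnip alone (-2.37, adjusted p = 0.174; 0.00358 to 0.321 over all settings). For the other 5 genes this difference lay between -0.47 and 0.34. In WT the difference of Cer1 was 0.56 ± 0.63 (0.604), none of the 6 was called, and 14.8% of all genes were. The unadjusted p of the 6 genes in WT was 0.184 or more. A test of whether the glucose difference itself depended on genotype, added after the DKO difference was seen, gave -3.75 ± 0.89 for Cer1 with a limma adjusted p of 0.0683; it called none of the 6 (Cer1 alone had an unadjusted p below 0.05, 0.00118) and 1.25% of all genes. With line as a replicate block it was -4.14 with adjusted p = 0.0212 (0.0212 to 0.503 over all settings), and the number of genes called went from 183 to 345. Day 4 lay outside these comparisons. On that day Cer1 in WT was at 6.16 (W1) and 31.8 (W2) RPKM in HG. In LG it was at 0.902 and 1.31 (W1) and 0.731 (W2). Higher Cer1 in HG was thus not particular to DKO, and the day 4 difference was not tested.

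Otx2, a homeobox factor of epiblast and anterior visceral endoderm, and Hhex, a homeobox factor of anterior endoderm, were also lower in LG than in HG in DKO, by -1.97 and -1.6. Together with Cfc1, the other co-receptor of the Cripto family (-2.52 ± 0.47, limma adjusted p = 0.00762), and Tgif1, a Smad corepressor (-0.61), they were the genes called in the 4 pathway lists described below. Cfc1 was at 40.1 and 13.2 RPKM in K3 in HG and at 7.27 and 2.31 in K3 in LG. In WT it was also lower in LG, though not called. There it went from a mean of 22.5 RPKM in HG to 9.57 in LG (W1) on day 8, and from 4.31 to 0.461 on day 12. Visceral endoderm transcripts were also higher in K3 in HG than in LG: the sum of 10 markers was 77.9 RPKM against 8.28 on day 8 and 1340 against 176 on day 12. Their median LG minus HG difference in DKO was -1.6, with 1 of 10 lower, Fgb (-2.04 ± 0.4, limma adjusted p = 0.0101), and none higher. In WT their median difference was -0.77. The sum in W1 was 2760 RPKM in HG against 921 in LG on day 8, and 5220 against 3590 on day 12, so this direction was not particular to DKO. Between genotypes at HG day 8 the same sum was lower in K3 than in W1 (2760) and W2 (1530). The 4 markers of anterior visceral endoderm besides Cer1 summed to 114 RPKM in K3 at HG day 8 and 33.1 at LG day 8, and to 90.4 and 26.3 on day 12. Among them Hhex, Lhx1 and Otx2 also stand in the list of mesendoderm targets, and Otx2 in that of formative epiblast markers. The formative epiblast sum was likewise higher in K3 in HG, at 264 RPKM against 123 in LG on day 8. On LG day 2, with almost no Cer1, the anterior visceral endoderm sum was already 37.5 RPKM in K3 and 81.0 in K1. It thus does not mark anterior visceral endoderm alone. The part of these markers in the result was not tested.

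From day 2 to day 4 in LG none of the 6 genes passed the test in either genotype. All genes were called at 8.64% in WT and 3.03% in DKO, with 1268 and 444 genes, and at 2052 and 918 genes with line as a replicate block. Lefty2 had the lowest unadjusted p in both (0.0244 and 0.0385; differences of -1.23 ± 0.48 and -1.11 ± 0.48). In WT, Foxh1 was also below 0.05 unadjusted (0.0342). From day 4 to day 8 in WT, Tdgf1, Lefty1, Lefty2 and Nodal fell. The log2 differences of these 4 genes were -2.89 ± 0.64, -2.69 ± 0.77, -1.96 ± 0.58 and -1.52 ± 0.46 (limma adjusted p = 0.00622, 0.0218, 0.0262 and 0.0268), in a step that called 28.2% of all genes. Day 8 of this comparison is W1 alone, and without W2 none of the 4 was called. Cer1 in WT had a difference of 1.9 ± 0.89 (0.132), which was called with line as a replicate block (2.17, adjusted p = 0.0478, with 0.0478 to 1 over all settings).

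In DKO the same step called none of the 6 genes and 30.2% of all genes. The closest was Lefty1 (-1.74 ± 0.63, limma adjusted p = 0.053), and 2 genes, Lefty1 (unadjusted p = 0.0164) and Tdgf1 (0.0357), were below 0.05 unadjusted. With line as a replicate block both were called, at -1.74 and -1.24 (adjusted p = 0.0387 and 0.0429; 0.00245 to 0.954 and 0.0429 to 0.255 over settings with checked headings). Lefty1 went from 54.0 to 4.12 RPKM in K3 and from 13.9 to 13.3 in K1, and without K1 its difference was -3.43. Nodal in DKO went from 21.8 to 21.6 in K1 and from 50.9 to 21.6 in K3 (-0.61 ± 0.37, 0.246). From day 8 to day 12 Foxh1 alone was called, in a step that called 1.02% of all genes in WT and 7% in DKO (150 and 1027 genes; 311 and 1639 with line as a replicate block). The day steps share the libraries of the day between them and so are not separate evidence.

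Between genotypes at LG days 2 and 4 none of the 6 genes was called, and the smallest unadjusted p was 0.154. Over all genes 0.15% and 1.67% were called on these days. At LG day 8, 1 gene, Nodal, was called against 18.9% of all genes, and Lefty2, Tdgf1 and Foxh1 had unadjusted p of 0.0434, 0.0222 and 0.0165. The LG and HG comparisons share no library but share the lines W1 and K3.

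The other genes of the pathway were grouped into 4 lists. Of the ligands, processing enzymes and receptors, 9 of 11 passed the filter, and 2 were higher in DKO at LG day 12: Gdf3, a ligand of the same family (2.49 ± 0.55), and Pcsk6, a convertase that processes Nodal (0.95 ± 0.33). At HG day 12 the 2 called were Gdf3 (1.54 ± 0.55) and the receptor Acvr2a (0.56 ± 0.15). The receptors Acvr1b and Acvr2b were not called in any of the 6 genotype comparisons. The median difference of this list was 0.26 in LG and 0.05 in HG, close to that of all genes. Of the 10 Smad transducers and nuclear partners, 5 were higher at LG day 12 and 3 at HG day 12, and none was lower. As with the 2 of 9 above, these counts stand beside 35.3% and 32.2% of all genes called, and the HG share is not above it. Tgif1 was higher in DKO in 4 of 4 late conditions, by 1.08 at LG day 8, 1.21 at LG day 12, 1.24 at HG day 8 and 1.17 at HG day 12 (limma adjusted p = 0.000899, 9.11e-05, 0.00102 and 0.000189). Smad2, which like Smad3 encodes a signal-dependent Smad protein, and Smad4, which encodes the shared one, were not called in these comparisons. Smad3 was higher in DKO on day 12. It was at 12 RPKM in W1 against a mean of 21.5 in DKO in LG, and at a mean of 18.2 in WT against 25.9 in K3 in HG.

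Of the 8 feedback genes and antagonists, 3 were higher and 1 lower in DKO at LG day 12. Skil, a Smad corepressor induced by the pathway, was higher by 1.86 ± 0.29 and Fst, follistatin, which binds activin, was lower, at -2.58 ± 0.67 (limma adjusted p = 0.000769 and 0.0116). At HG day 12 Skil was higher (1.1 ± 0.29) and Fstl3, a follistatin relative, lower (-2.31 ± 0.62). Smad7, the inhibitory Smad, was not called in any of the genotype comparisons. Of the 14 mesendoderm targets, T, the mesoderm factor brachyury, was higher in DKO at LG day 12 (2.52 ± 0.55), HG day 8 (2.77 ± 0.55) and HG day 12 (2.3 ± 0.55). The endoderm factors Foxa2 and Sox17 were lower at LG day 12 (-2.43 ± 0.67 and -2.48 ± 0.83). At HG day 12, 5 targets were higher and none lower: Eomes (2.65 ± 0.87), T, Lhx1 (2.26 ± 0.69), Hhex (1.44 ± 0.38) and Otx2 (3.23 ± 0.5). The targets called in LG thus moved in both directions, with a list median of 0.84 at LG day 12 and 1.48 at HG day 12. In all, 4 of the 14 targets were called at LG day 12 and 5 at HG day 12. Of the 8 feedback genes, 4 were called at LG day 12 and 2 at HG day 12. These counts stand beside 35.3% of all genes called in LG and 32.2% in HG. The 4 of 8 in LG lay furthest above that share, in a list of only 8 genes.

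**Figure D3:**
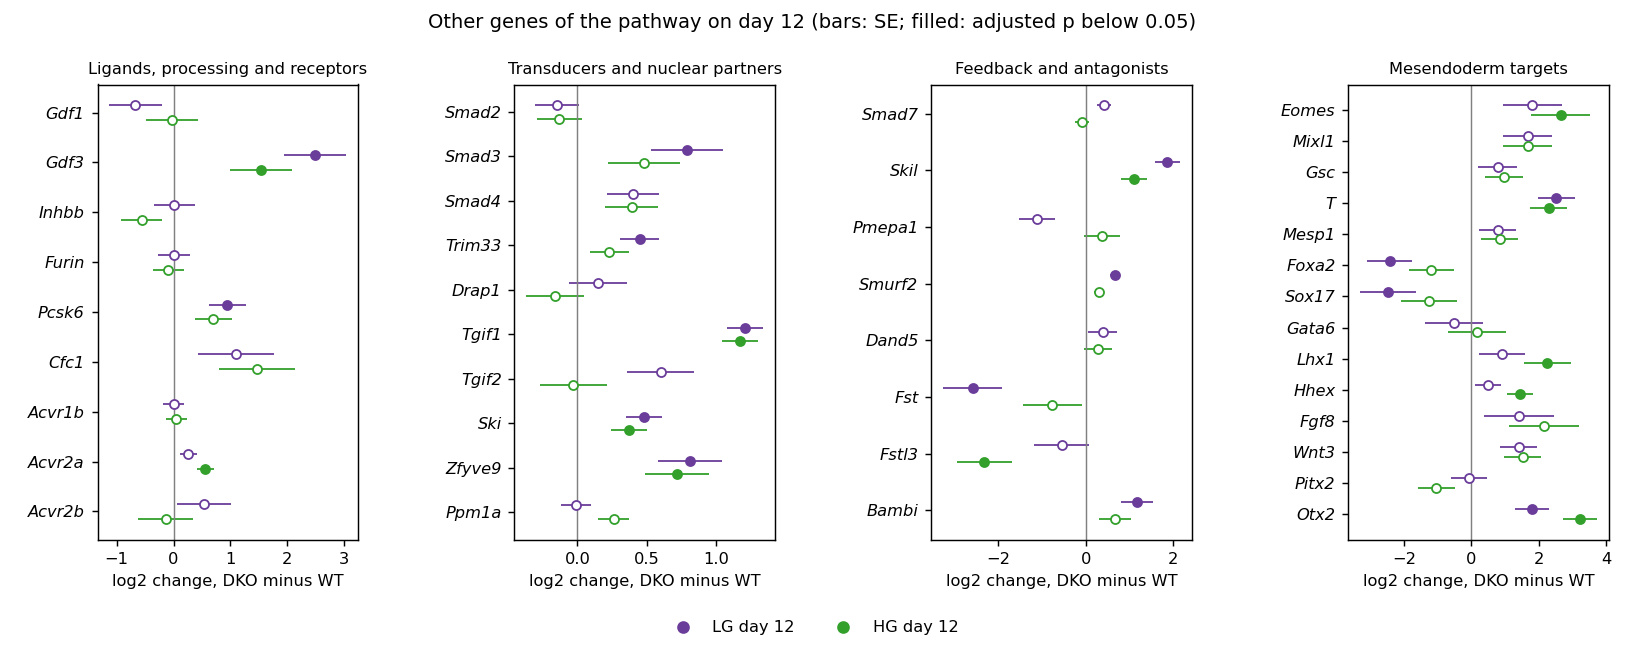
Differences between genotypes (DKO minus WT, log2(RPKM + 1) scale, bars SE) on day 12 for the further pathway genes in 4 lists, LG in purple and HG in green. Filled points have an adjusted p below 0.05. Gdf3, Tgif1, Skil, T and Otx2 are filled and to the right of 0 in both media, and Fst, Foxa2 and Sox17 are filled to the left in LG.

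Markers of several cell types moved with these results. On LG day 12 the summed RPKM of 8 pluripotency markers was 145 in W1 against 486 in K1 and 318 in K3, and on HG day 12 it was 81.1 and 75.9 in WT against 219 in K3. Of these 8 markers, 6 were higher and 1, Klf4, lower in DKO at LG day 12. Visceral endoderm markers summed to 3590 RPKM in W1 against 251 in K1 and 176 in K3 at LG day 12, with 6 of 10 lower, 0 of 10 higher and 2 of 10 below 1 RPKM in K3. The 6 markers chosen for feeder fibroblasts, which embryoid bodies also form in mesenchyme, summed to 1180 RPKM against 303 and 482, with 3 of 6 lower and none higher, and to between 4.06 and 8.82 on LG day 2. On HG day 12 the visceral endoderm sum was 5220 and 7710 RPKM in WT against 1340 in K3 (2 of 10 lower), and the fibroblast sum 2250 and 1680 against 183 (5 of 6 lower, 1 higher). Of 4 formative epiblast markers, 2 were higher in DKO at LG day 12 and 4 at HG day 12, and of the 4 anterior visceral endoderm markers 1 and 3 were. Otx2 stands in both lists and was called in both media, so the 1 in LG is Otx2 counted again. All these marker counts stand beside 35.3% of all genes called at LG day 12 and 32.2% at HG day 12. The part of the markers in the differences of the 6 genes was not tested. In bulk RNA, fewer cells of a type and less RNA per cell cannot be told apart.

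Pou5f1, the pluripotency factor Oct4, varied closely with 4 of the 6 genes. Across the 23 values, Pearson r on the log2 scale with Pou5f1 was 0.96 for Tdgf1, 0.95 for Nodal and Lefty1, 0.89 for Lefty2, 0.73 for Foxh1 and -0.15 for Cer1. The points share lines and days, so these are descriptions. Nodal per unit of Pou5f1 (ratio of RPKM values) was 0.121 in W1, 0.0848 in K1 and 0.142 in K3 on LG day 12, and 0.251 in W1, 0.189 in W2 and 0.153 in K3 on HG day 12. DKO ratios lay on both sides of WT in LG and below WT in HG, unlike the levels. Tdgf1 per Pou5f1 was 0.323, 0.308 and 0.71 on LG day 12 and 0.342, 0.393 and 0.841 on HG day 12, so that K3 was the higher line and K1 lay close to the WT ratio. Foxh1 per Pou5f1 was 0.219 in W1, 0.131 in K1 and 0.182 in K3 on LG day 12, against 0.0498 to 0.0671 in the 4 lines on LG day 2. On HG day 12 it was 0.547 in W1, 0.708 in W2 and 0.452 in K3. The DKO ratios of Foxh1 on day 12 were thus below WT in both media, unlike the levels. Lefty2 per Pou5f1 was 0.0477 in W1, 0.0526 in K1 and 0.0594 in K3 on LG day 12. On HG day 12 it was 0.0446 in W1, 0.0596 in W2 and 0.0777 in K3, so DKO ratios of Lefty2 were above WT in both media. For Lefty1 the ratios were 0.0946, 0.0655 and 0.0707 in LG and 0.0684, 0.0423 and 0.0826 in HG. DKO was thus below WT in LG and above WT in HG for Lefty1.

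**Figure D4:**
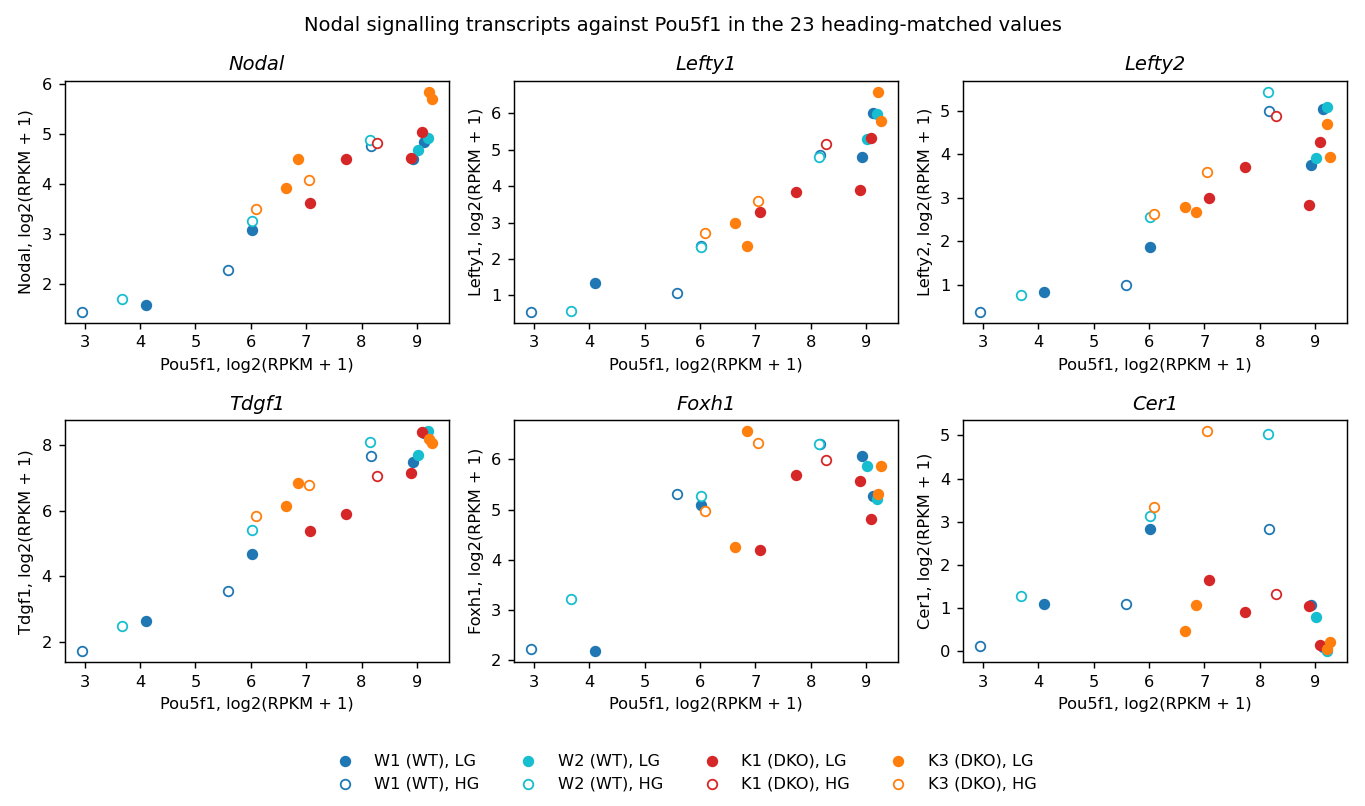
Each of the 6 genes against Pou5f1, both as log2(RPKM + 1), in 23 values, 1 per line and condition. Filled points are LG and open points HG. Nodal, Tdgf1, Lefty1 and Lefty2 follow Pou5f1 in both genotypes, Foxh1 is highest at intermediate Pou5f1, and Cer1 shows no such order.

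The 6 genes were also compared with each other and with 12905 genes over the same 23 values. Nodal and Tdgf1 had the highest r among the members (0.97), Nodal with Lefty1 had 0.93 and with Lefty2 0.91, and Lefty1 with Lefty2 had 0.93. Foxh1 had 0.59 to 0.76 with these 4, and Cer1 -0.17 to 0.33 with the other 5. The 3 closest genes were Nol10, Ppid and Spc24 for Nodal (0.977 to 0.978), Pkm, Zscan10 and Dtymk for Tdgf1 (0.968 to 0.977), and Exosc7, Tkt and Vrtn for Foxh1 (0.939 to 0.953). For Lefty2 they were Olig2, Nfatc2ip and Lefty1 itself (0.934 to 0.954). For Cer1 they were Lhx1 (0.883), the homeobox factor Gsc (0.849) and Lhx1os, named as the opposite-strand transcript of Lhx1 (0.844). The libraries do not mark strand, so reads where the last and Lhx1 overlap cannot be told apart. Lhx1 in K3 was at 20 RPKM at HG day 8 and 9.89 at LG day 8, a smaller step than that of Cer1, and its LG minus HG difference in DKO was -1.21 ± 0.49 (limma adjusted p = 0.173).

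The 18 libraries that went against their headings held some of the most extreme values of the 6 genes. The highest Tdgf1 and Nodal values of the table, 686 and 79.6 RPKM, were under the heading W2 HG day 2, and the highest Lefty1, 151 RPKM, under the later-listed column headed W2 HG day 4. In the columns headed W2 LG day 8 and W2 LG day 12, Nodal was at 50.4 and 26.7 RPKM, Tdgf1 at 390 and 293, and Lefty1 at 108 and 75.1, each above every matched library of days 8 and 12. The ESC column headed K3 had Nodal at 1.60, Tdgf1 at 3.40 and Foxh1 at 3.92, levels otherwise seen on day 12. The ESC column headed W2 had Cer1 at 11.2 with Tdgf1 at 11.4. The day of these libraries is therefore in doubt as well as their line, genotype or glucose. The 1 ESC library that matched by line, genotype and glucose, K1, had Nodal at 27.0, Tdgf1 at 133, Foxh1 at 62.4, Lefty1 at 34.8, Lefty2 at 28.5 and Cer1 at 1.51 RPKM; it stands between contradicted columns and entered no comparison. With all 42 libraries under their headings no member was called in any comparison between genotypes, and 52 genes of the whole table were called at LG day 8 and 572 at LG day 12.

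**Figure D5:**
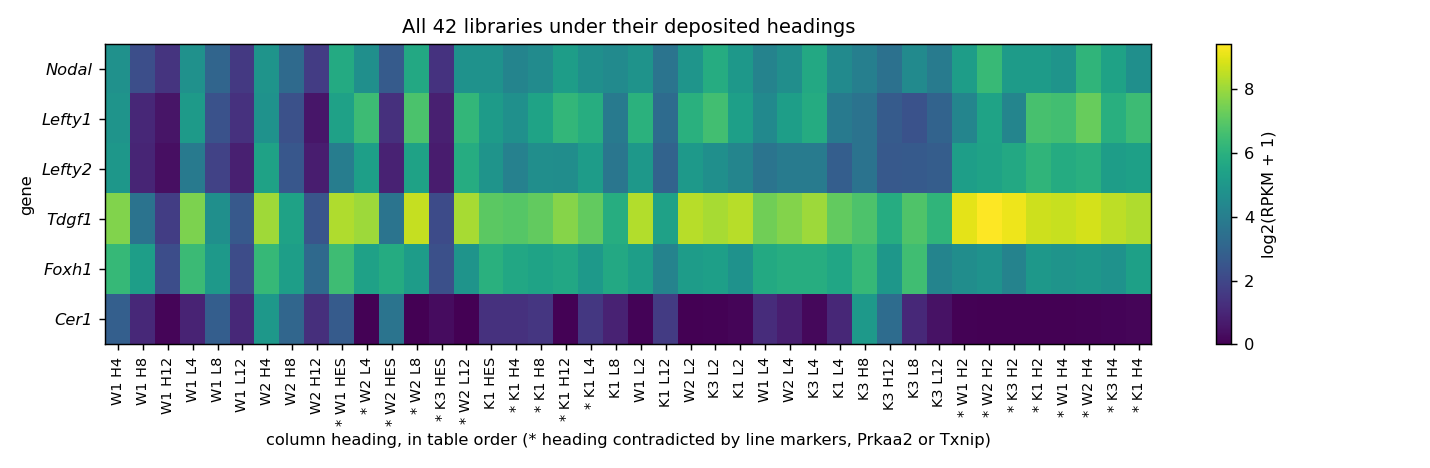
RPKM of the 6 genes (rows, colour as log2(RPKM + 1)) in all 42 columns under their deposited headings, in table order; an asterisk marks the 18 headings contradicted by line markers, Prkaa2 or Txnip. In the 8 contradicted columns at the right Tdgf1 is at 313 to 686 RPKM and Cer1 at 0.09 or less.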

How the data were processed

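Messenger RNA of 42 libraries was sequenced from a kit that does not mark strand, per the labels' protocols. The authors deposited RPKM values of 24225 genes, and the file headers give mm10 positions; how reads with several positions were handled is not given in the sources used here. Tools listed without roles in the submitters' processing notes are edgeR 3.6.8, R 3.1.1, STAR 2.4.0k, FastQC 0.11.2 and HOMER. Steps of low values gave whole reads within 0.1 read in 100% of cases, and with them the depth; no count model was run. RPKM values are relative to the library total, so abundant transcripts that change alter the values of others.

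Columns were assigned by heading alone. The day 4 headings that stood over 2 columns numbered 6; a matched pair was averaged on the log scale. Libraries were left out where Ddx3y and Meg3, Prkaa2 or Txnip contradicted the heading; the line marker thresholds were set after the values were seen. limma 3.58.1 (R 4.3.3) fitted group means to log2(RPKM + 1) of 23 values (residual degrees of freedom 9, eBayes with trend). The 14670 genes tested reached 1 RPKM in 2 or more values; the pseudocount of 1 understates changes of low genes. Where an arm held 1 line, its variance was taken to equal that of the rest. p-values were adjusted by Benjamini-Hochberg over all genes tested, with a threshold of 0.05 in each of 16 comparisons, and measure only the spread between these lines, which may not be independent cultures of each condition. SE values are moderated. Values of 1 line come from the same cell line in several conditions; in a check of this pairing the correlation within lines was 0.195.

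The members, lists and markers were chosen with earlier results of these data known. Named genes are the 6 members, up to 4 list genes with the smallest p among those called, and the 3 genes closest to each member; genes named as not called, and markers, were named after their values were seen. Promoter sequences came from RefSeq (GRCm38.p6), which held 3 of the 6 genes, and transcripts from GENCODE. The genes closest to Lefty1 and a stretch of the Lefty coding sequences are not reported here.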

Additional observations from a re-analysis of the deposited data

Results flagged for a closer look

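In the 4 columns headed WT HG day 4, Nodal reached 70.7 RPKM in the later-listed column headed W2, far from the other 3. In the 4 columns headed WT LG day 4, Lefty2 reached 39.2 RPKM in the earlier-listed column headed W2, far from the other 3. Both columns are among those whose markers contradict the heading, and neither entered the comparisons. In all, 12 such sets of 4 values were looked at, 1 per gene and group of columns, and chance alone sets a column apart in about 1 of 20. The genes share the same columns, so these sets are not independent.

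The course of Foxh1 over LG days differed between genotypes in a test of that difference (limma adjusted p = 0.0228). The highest values of WT were on day 4 and those of K1 and K3 on day 8.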

How the results depend on the processing

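The number of the 6 genes called depended most on which libraries entered. With every library under its heading the count was 0 in every comparison, against 1, 4, 2 and 6 for the genotype at LG days 8 and 12 and HG days 8 and 12, 4 and 1 for WT days 8 and 12, 1 for DKO day 12, 1 for glucose in DKO and 1 for genotype by day; Lefty2 at LG day 12 reversed to -0.45. With headings checked by Prkaa2 and Txnip alone it was 0 at LG day 8, HG day 8, for glucose in DKO and for genotype by day, and 1 for WT day 8; it was 3 at LG day 12 (Lefty2 lost) and 5 at HG day 12 (Cer1 lost). The cause was not tested. At LG day 8 the count was 0 with a pseudocount of 0.1, without the filter, with median-of-ratios scaling and without the trend. At HG day 12 it was 4 without the filter (Lefty1 and Cer1 lost) and 5 with median-of-ratios scaling or without the trend (Lefty1 lost, adjusted p = 0.0557 and 0.0526). At HG day 8 it was 1 with the pseudocount, 0 without the filter and 4 with quantile scaling. For DKO day 8 against day 4 it was 1 with either scaling. With quantile scaling genotype by glucose gave 1 and genotype by day 2. With line as a replicate block (paired values of a line), DKO day 8 gave 2, genotype by glucose 1 and genotype by day 2; of the remaining comparisons it changed the calls of Lefty1 at HG day 12 and Cer1 in WT day 8.

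Leaving out 1 line gave 0 to 2 at LG day 8, 0 to 5 at HG day 8, 1 to 5 at HG day 12, 0 to 4 and 0 to 1 for WT days 8 and 12, 0 to 2 and 0 to 1 for DKO days 8 and 12 and 0 to 2 for genotype by day. Comparisons that need W1 or K3 alone could not be fitted without it. At LG day 12 it gave 3 to 5.

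Over all genes, the counts for the genotype were 22, 245, 2772 and 5183 at LG days 2, 4, 8 and 12 and 2240 and 4730 at HG days 8 and 12. The lowest over all settings were 0, 0, 52, 572, 2 and 492, and the highest, without K1, 415, 1487, 4680, 6714, 4572 and 6545. For day steps in WT the counts 1268, 4133 and 150 ran from 0 to 2635, 0 to 5977 and 0 to 474, and in DKO 444, 4427 and 1027 from 0 to 918, 89 to 5344 and 69 to 1639. For glucose, 2164 in WT and 985 in DKO ran from 160 to 3708 and 207 to 1563, genotype by glucose (183) from 0 to 590 and genotype by day (1548) from 4 to 3081. Scaling moved the median of all genes by at most -0.11 on the log2 scale and reversed no called member. The 18 left-out libraries limit the late arms to 1 line, and values of Cer1 at LG day 2 are limited by depth.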
